A study of Mus musculus with 9 samples.

Results

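The 46 genes described here, listed as protein-coding, are mouse H2 genes of the major histocompatibility complex (MHC) and genes that serve or regulate the presentation of peptides to T cells. They were taken from a table of 55385 gene rows by name. They are the rows whose symbol starts with H2- (H2-Ke6 left out), plus B2m, Tap1, Tap2, Tapbp, Psmb8, Psmb9, Psmb10, Nlrc5, Cd74 and Ciita. Of these, 26 are class I heavy chains, 8 belong to the class I machinery, 10 are class II chains and 2 (Cd74 and Ciita) are class II associated. The rule reads names only, not levels.

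Total RNA depleted of ribosomal RNA came from the ischemic brain hemisphere of male C57BL/6 mice aged 8 to 10 weeks, with 3 libraries in each of 3 groups. Sham mice had the surgery without occlusion. In tMCAO (transient middle cerebral artery occlusion, a filament model of ischemic stroke) the artery was closed for 90 min and then reperfused. Celastrol mice had the same occlusion and were given celastrol, a triterpenoid from the plant Tripterygium wilfordii, at 4.5 mg/kg into the peritoneum as reperfusion began. Neither the labels nor the protocols say when the tissue was taken after reperfusion or how many animals a library holds. The p-values therefore rest on the variation among libraries, which may be technical.

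Class I molecules pair a heavy chain with beta-2 microglobulin (B2m) and show peptides from inside the cell to CD8 T cells. The proteasome cuts these peptides, TAP1 and TAP2 pump them into the endoplasmic reticulum, and tapasin (Tapbp) bridges the transporter to the empty heavy chain. Class II molecules show peptides from engulfed material to CD4 T cells, are guarded by the invariant chain (Cd74) until they reach the endosome, and receive their peptide with the help of H2-DM. In the healthy brain parenchyma both classes are known to be low, with class II found mostly on cells at the borders of the brain.

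On the mm10 build used for the deposited table, 41 of the 46 genes lie on chromosome 17, between 33915899 and 37483552, and the other 5 (B2m, Psmb10, Nlrc5, Ciita and Cd74) lie elsewhere. The DNA just before the RefSeq start of 4 of them is printed here, searched for letters by which genes of the 2 classes are known to be read. The classical class I genes are known for a binding site for NF-kappaB, searched for here as the letters GGGGATTCCC, which were taken from the H2-D1 window itself. Genes of both classes are known for a module with a CRE half-site (TGACG) and a Y box (CCAAT, which reads ATTGG on the other strand). RefSeq promoter windows on GRCm38.p6 were at hand for 36 of the 46. The 250 bases before the start are printed 5′ to 3′ on the gene's strand, with capitals marking matches to these motifs. They are chr17:35262844-35263093 (plus strand) for H2-D1, chr17:34000348-34000597 (minus strand) for H2-K1, chr17:34187306-34187555 (plus strand) for Tap1 and chr17:34287824-34288073 (minus strand) for H2-Aa. The RefSeq start of H2-D1 lies downstream of the start of its deposited row (35262730), so its printed bases fall within that row.
H2-D1: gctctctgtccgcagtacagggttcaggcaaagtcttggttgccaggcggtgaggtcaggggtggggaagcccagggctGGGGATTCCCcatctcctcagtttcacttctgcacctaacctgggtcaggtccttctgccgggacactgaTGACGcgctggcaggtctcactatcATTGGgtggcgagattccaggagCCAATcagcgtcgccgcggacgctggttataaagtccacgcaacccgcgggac
H2-K1: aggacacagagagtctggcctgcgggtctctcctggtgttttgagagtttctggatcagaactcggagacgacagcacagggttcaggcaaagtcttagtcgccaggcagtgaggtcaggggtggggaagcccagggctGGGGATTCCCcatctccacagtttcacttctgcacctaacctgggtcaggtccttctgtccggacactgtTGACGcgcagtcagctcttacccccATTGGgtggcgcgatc
Tap1: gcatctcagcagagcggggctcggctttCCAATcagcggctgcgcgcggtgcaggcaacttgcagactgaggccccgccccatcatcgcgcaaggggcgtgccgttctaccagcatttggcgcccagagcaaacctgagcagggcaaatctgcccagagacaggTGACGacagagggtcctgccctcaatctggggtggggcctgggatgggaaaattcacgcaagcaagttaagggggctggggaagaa
H2-Aa: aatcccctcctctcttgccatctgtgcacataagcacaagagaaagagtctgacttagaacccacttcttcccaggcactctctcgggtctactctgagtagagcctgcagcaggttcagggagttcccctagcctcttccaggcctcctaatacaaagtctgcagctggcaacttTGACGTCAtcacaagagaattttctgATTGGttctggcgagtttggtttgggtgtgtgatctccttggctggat

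Within 300-base windows (250 before the start and 50 after, both strands searched), GGGGATTCCC stood in the windows of H2-K1, H2-Q6 and H2-Q7 besides that of H2-D1, which holds it by construction. Among all 27025 genes with a window, 0.126% held it. These are related genes, so their matches are not separate cases. CCAAT was in 23 of 28 class I and in 8 of 8 class II windows, against 41.1% of all genes. TGACG was in 14 of 28 class I windows but in 1 of 8 class II windows (H2-Aa, where the letters overlap on both strands), against 23.0% of all genes. An interferon response core (a pair of GAAA with any 2 bases between) was in the windows of B2m, H2-T22 and H2-T23, and in 3.99% of all genes. Tap1 and the immunoproteasome gene Psmb9 lie head to head and share 275 bases of their windows. In the Tap1 window CCAAT came before TGACG (first bases at -222 and -86 from the start). In those of H2-D1, H2-K1 and H2-Aa TGACG came first, so the Tap1 letters are not laid out as in these. A match is a run of letters and does not show that a factor was bound.

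Libraries held between 60392960 and 75158625 estimated counts. Celastrol replicate 2 stood apart from its group. It scored -23.2 on principal component 1, which held 31.0% of the variance, close to sham replicate 1 (-25.8). Celastrol replicates 1 and 3 scored 44.1 and 20.3 and tMCAO libraries 16.99 to 58.1. Levels are given as FPKM, which scales fragments by the length of the transcript and the size of the library. Of the 46 genes, 19 reached 0.5 FPKM in at least 3 libraries and were tested (15 of class I, 4 of class II), 21 had counts but did not reach it, and 6 (5 class I genes and H2-Ea-ps) had a count of 0 in every library. A gene could pass the filter through 1 group alone, and Tap1 was below 0.5 FPKM in every sham library. H2-Eb1 was below it in every celastrol library and passed through sham replicate 1 and tMCAO replicates 1 and 3. Tap1 and H2-Eb1 thus entered the test through groups where they were high, so the counts below that include them are not independent of the filter. Genes such as H2-Q4, H2-T24, Tap1 and B2m overlap another gene on the other strand (13 of the 19 tested overlap some row), and no source used here says whether counting was stranded, so their levels are uncertain. H2-D1 and H2-K1 overlap no other row. They share 1.54% and 0% of 150-base windows with another gene, against 8.39% for H2-Q4.

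Class I genes had the highest levels of the 46. B2m led with a mean of 74.2 FPKM over the 9 libraries, then H2-D1 (17.9), Psmb10 (8.22), H2-T22 (6.51) and H2-K1 (5.48). The highest class II genes were Cd74 (2.69 FPKM) and H2-DMa (2.16), and the classical class II chains H2-Eb1, H2-Ab1 and H2-Aa had means of 0.527, 0.384 and 0.285 FPKM.

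H2-D1, the main classical class I heavy chain here, was highest after occlusion. Its FPKM was 13.04, 11.5 and 10.6 in sham replicates 1, 2 and 3, 30.2, 17.5 and 22.97 in tMCAO, and 25.4, 13.998 and 15.7 with celastrol. Every tMCAO and celastrol library lay above every sham library. In edgeR's quasi-likelihood test the log2 fold change was 0.91 ± 0.24 (SE) for tMCAO against sham, a level 1.88 times that of sham (adjusted p = 0.18 by Benjamini-Hochberg over 16982 genes). For celastrol against sham it was 0.58 ± 0.24 (edgeR adjusted p = 0.548). The other classical heavy chain, H2-K1, was at 4.25, 5.00 and 3.02 FPKM in sham, 9.14, 4.84 and 6.09 in tMCAO and 8.13, 3.95 and 4.88 with celastrol. The 3 groups of H2-K1 overlapped, and its log2 fold change for tMCAO against sham was 0.61 ± 0.31 (edgeR adjusted p = 0.402).

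B2m, the light chain shared by all class I molecules, was at 72.4, 63.6 and 59.6 FPKM in sham, 87.7, 63.0 and 86.6 in tMCAO and 89.7, 82.5 and 62.9 with celastrol. The groups overlapped, with log2 fold changes from sham of 0.18 ± 0.17 in tMCAO and 0.21 ± 0.17 with celastrol (edgeR adjusted p = 0.646 and 0.792).

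**Figure D1:**
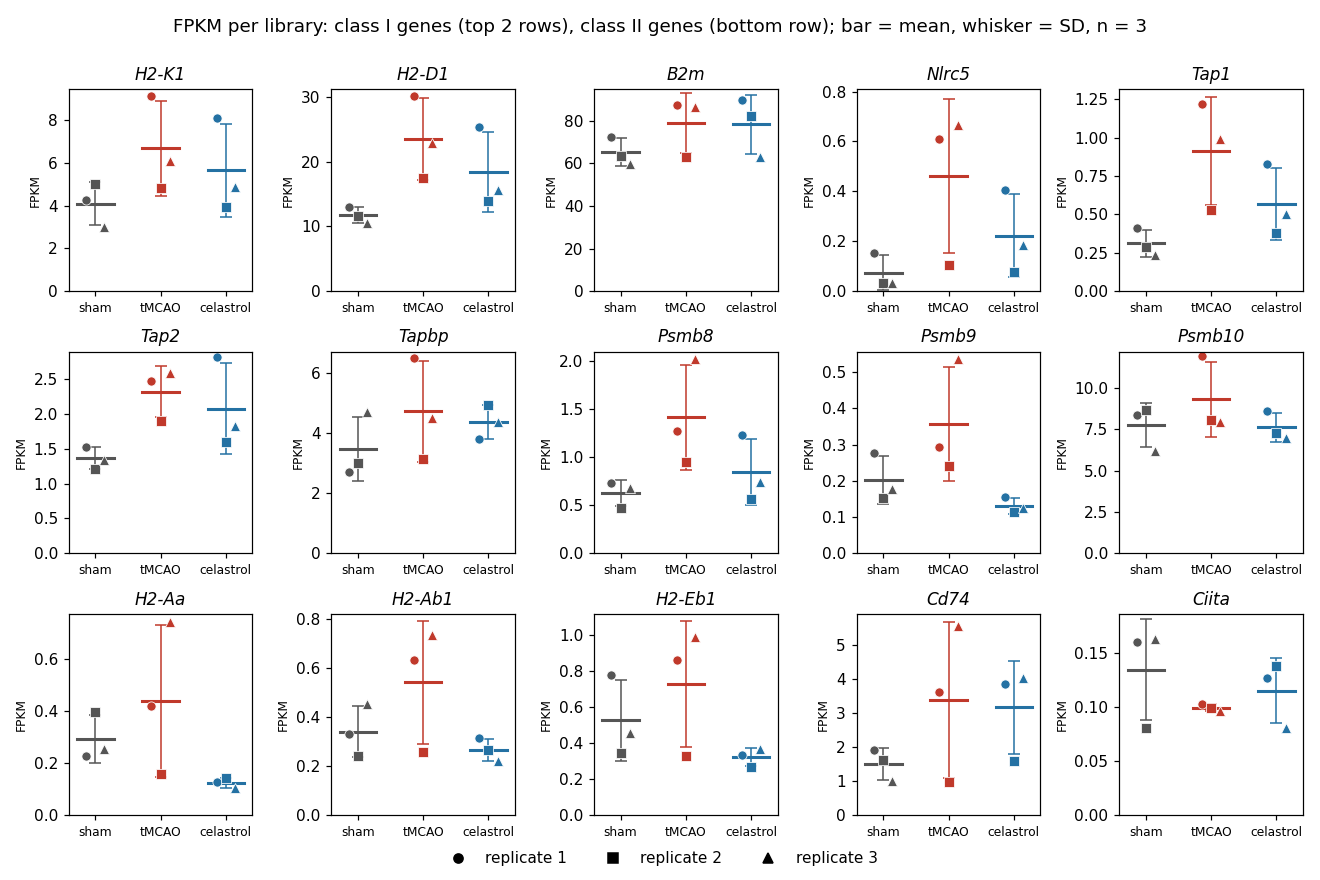
FPKM in each library for 15 genes of the 2 pathways, with class I genes in the top 2 rows and class II genes in the bottom row. Points are libraries (circle, square and triangle for replicates 1, 2 and 3), bars are group means and whiskers SD (n = 3). H2-D1 was above sham in all 6 occluded libraries, and H2-Aa with celastrol lay below every other library.

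Of the peptide loading genes, the transporter subunits lay wholly above sham in tMCAO and tapasin overlapped it. Tap1 was at 0.411, 0.287 and 0.235 FPKM in sham, 1.22, 0.53 and 0.99 in tMCAO and 0.826, 0.377 and 0.501 with celastrol. All tMCAO libraries were above all sham libraries, and celastrol replicate 2 was below sham replicate 1. The log2 fold change of Tap1 was 1.45 ± 0.39 for tMCAO against sham (edgeR adjusted p = 0.19) and 0.79 ± 0.39 for celastrol against sham (adjusted p = 0.625). Tap2 was at 1.53, 1.22 and 1.34 FPKM in sham, 2.48, 1.899 and 2.59 in tMCAO and 2.82, 1.60 and 1.83 with celastrol. As for H2-D1, every occluded library of Tap2 lay above every sham library. Its log2 fold changes against sham were 0.67 ± 0.22 for tMCAO and 0.55 ± 0.22 for celastrol (edgeR adjusted p = 0.237 and 0.548). Tapbp was at 2.70, 3.01 and 4.69 FPKM in sham, 6.51, 3.14 and 4.52 in tMCAO and 3.82, 4.95 and 4.36 with celastrol, so the groups overlapped (0.35 ± 0.30 for tMCAO against sham, edgeR adjusted p = 0.627).

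The immunoproteasome replaces the catalytic subunits of the standard proteasome and is known to change which peptides are made. Psmb8 was at 0.735, 0.475 and 0.676 FPKM in sham, 1.27, 0.952 and 2.02 in tMCAO and 1.23, 0.567 and 0.743 with celastrol. All tMCAO libraries of Psmb8 were above all sham libraries, with a log2 fold change of 1.06 ± 0.36 (edgeR adjusted p = 0.241), and it was -0.70 ± 0.35 for celastrol against tMCAO (adjusted p = 0.976). Psmb9 was at 84, 41 and 46 counts in sham, 88, 72 and 137 in tMCAO and 47, 33 and 40 with celastrol. It did not reach the filter, and its celastrol libraries were all below its tMCAO libraries. In a fit of all genes with a count, Psmb9 had a log2 fold change of -1.34 ± 0.42 for celastrol against tMCAO (edgeR adjusted p = 0.834). Psmb10, the most abundant of the 3, was at 8.35, 8.67 and 6.21 FPKM in sham, 11.9, 8.06 and 7.95 in tMCAO and 8.58, 7.29 and 6.97 with celastrol. Its groups overlapped, with a log2 fold change of 0.17 ± 0.20 for tMCAO against sham (edgeR adjusted p = 0.738). Of the standard subunits they replace (Psmb5, Psmb6 and Psmb7), 0 of 3 passed an unadjusted p of 0.05 in edgeR in any of the comparisons. For tMCAO against sham 8.56% of all genes tested were higher and 6.36% lower at that p, and 3 genes are too few to set against such shares.

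Nlrc5, the transactivator of class I genes, ranged from 19 to 423 counts in a library. It had 109, 21 and 19 counts in sham, 423, 74 and 397 in tMCAO and 268, 51 and 134 with celastrol. Replicate 1 of sham was above replicate 2 of both other groups, so the groups overlapped. In the fit of all genes with a count its log2 fold change for tMCAO against sham was 2.53 ± 0.85 (edgeR adjusted p = 0.381).

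Nonclassical class I genes had values in both directions. H2-Q4, in the Q region of the complex, was at 1.22, 1.07 and 0.918 FPKM in sham, 6.10, 1.56 and 2.64 in tMCAO and 2.47, 1.03 and 1.05 with celastrol. Its tMCAO libraries lay above all sham libraries, with replicate 1 far above replicates 2 and 3, and celastrol replicates 2 and 3 lay within the range of sham. The log2 fold change was 1.58 ± 0.51 for tMCAO against sham (edgeR adjusted p = 0.231) and -1.16 ± 0.51 for celastrol against tMCAO (edgeR adjusted p = 0.976). Without tMCAO replicate 1 these values of H2-Q4 were 0.86 and -0.44.

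H2-T24 went the other way. It was at 3.04, 2.86 and 4.07 FPKM in sham, 1.89, 2.16 and 1.95 in tMCAO and 3.01, 2.70 and 2.63 with celastrol. The tMCAO libraries were below every library of the other groups. The log2 fold change was -0.83 ± 0.19 for tMCAO against sham (edgeR adjusted p = 0.144) and 0.51 ± 0.19 for celastrol against tMCAO (edgeR adjusted p = 0.976). H2-T22 and H2-T23 (the gene of Qa-1, a ligand of NK cell receptors) had log2 fold changes of 0.07 ± 0.14 and 0.05 ± 0.22 for tMCAO against sham. H2-T22, H2-T23 and H2-T24 all overlap 1 gene on the other strand, A930015D03Rik.

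The other tested class I genes were H2-M3, which is known to bind formylated peptides, H2-M5 and H2-Bl. Their log2 fold changes for tMCAO against sham were 0.32 ± 0.33, -0.26 ± 0.34 and 1.26 ± 0.93, with groups that overlapped. Leaving out sham replicate 1 moved the value of H2-Bl to 2.71, and leaving out tMCAO replicate 1 moved it to 0.60. Of the 17 heavy chains that were not tested, H2-Q10 was listed at 0 in the 3 sham libraries and had 30, 8 and 58 counts in tMCAO and 22, 0 and 11 with celastrol. Set against a floor of 3 counts over the sham group, its tMCAO level was at least 30.7-fold higher than sham, from few counts that cover counting error only. H2-Q6 had 37, 19 and 34 counts in sham, 123, 70 and 89 in tMCAO and 78, 58 and 30 with celastrol. H2-T10 had 44, 32 and 58 counts in sham, 100, 123 and 87 in tMCAO and 18, 56 and 57 with celastrol. For H2-Q6 and H2-T10 all tMCAO libraries were above all sham libraries, and for H2-T10 all celastrol libraries were below all tMCAO libraries. The 6 H2-M10 genes share 1 name in the table and were told apart by gene ID. Of these, 4 had no count in any library.

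**Figure D2:**
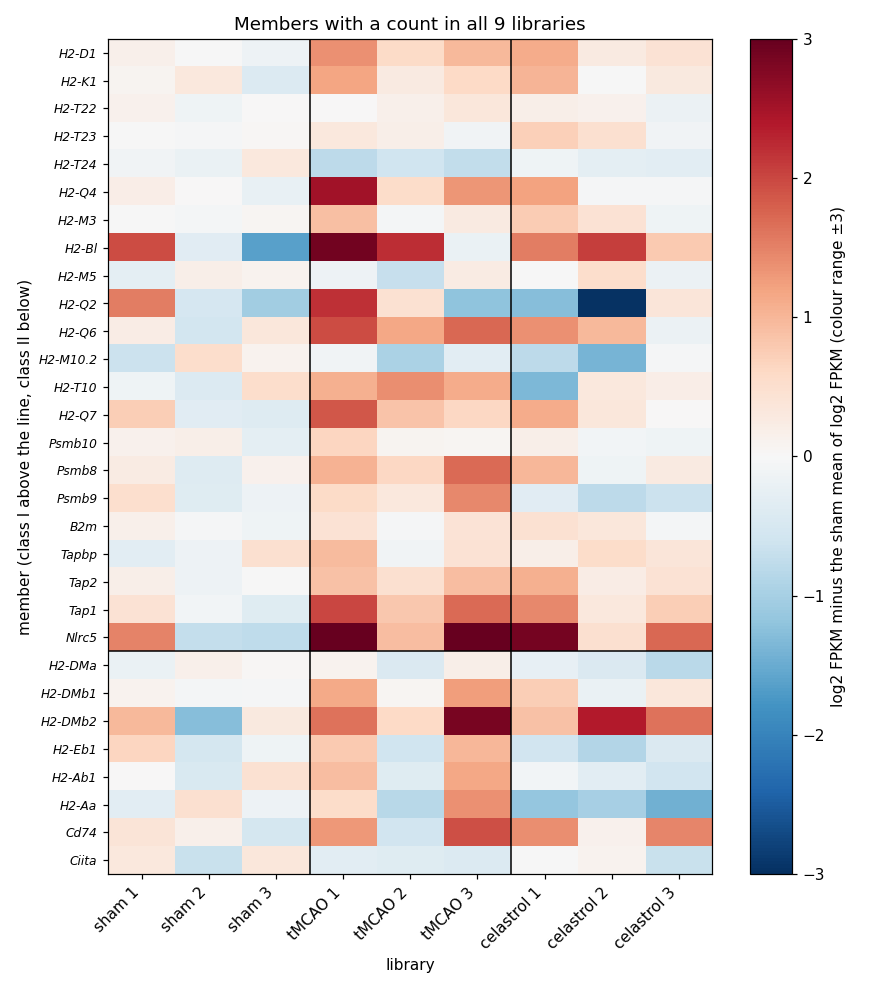
Log2 FPKM minus the sham mean of log2 FPKM for the 30 genes with a count in all 9 libraries, 22 of class I above the line and 8 of class II below it. Colours end at 3 on either side (values ran from -2.97 to 3.59). Reds gather in rows of both classes in tMCAO replicates 1 and 3 and in the class I rows of celastrol replicate 1. H2-T24 is blue in the 3 tMCAO columns.

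Class II genes were low in all groups, and the tMCAO libraries spread widely. The chains that bind the peptide are H2-Aa with H2-Ab1 (the I-A molecule) and the beta chain H2-Eb1, whose alpha partner H2-Ea-ps is not made in C57BL/6 mice and had no count here. H2-Aa had 72, 107 and 66 counts in sham, 129, 49 and 196 in tMCAO and 38, 42 and 35 with celastrol. All 3 celastrol libraries of H2-Aa were below all 6 others, and the tMCAO libraries spanned the sham range. H2-Aa did not reach the filter. In the fit of all genes with a count its log2 fold change was -1.72 ± 0.54 for celastrol against tMCAO (edgeR adjusted p = 0.834) and -1.26 ± 0.53 for celastrol against sham (edgeR adjusted p = 0.732).

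H2-Ab1 had 72, 45 and 83 counts in sham, 134, 55 and 133 in tMCAO and 65, 53 and 51 with celastrol, so its groups overlapped. H2-Eb1 was at 0.781, 0.348 and 0.458 FPKM in sham, 0.863, 0.330 and 0.992 in tMCAO and 0.334, 0.270 and 0.368 with celastrol. As for H2-Aa and H2-Ab1, replicate 2 was the lowest of the tMCAO libraries. The log2 fold change of H2-Eb1 was 0.35 ± 0.44 for tMCAO against sham, -0.75 ± 0.45 for celastrol against sham and -1.10 ± 0.45 for celastrol against tMCAO (edgeR adjusted p = 0.751, 0.71 and 0.976).

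The H2-DM chains exchange the invariant chain's peptide for the one that is shown. H2-DMa was at 2.08, 2.68 and 2.48 FPKM in sham, 2.59, 1.76 and 2.70 in tMCAO and 2.03, 1.77 and 1.37 with celastrol. Each celastrol library of H2-DMa was below each sham library, with a log2 fold change of -0.54 ± 0.23 (edgeR adjusted p = 0.562), against -0.14 ± 0.23 for tMCAO against sham. The gene overlaps Brd2 and 3 other rows, so its level is uncertain. H2-DMb1 was at 0.695, 0.622 and 0.627 FPKM in sham, 1.41, 0.669 and 1.54 in tMCAO and 1.08, 0.565 and 0.818 with celastrol, with overlapping groups and a log2 fold change of 0.78 ± 0.36 for tMCAO against sham (edgeR adjusted p = 0.348).

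Cd74, the invariant chain, was at 1.93, 1.62 and 1.01 FPKM in sham, 3.62, 0.982 and 5.57 in tMCAO and 3.88, 1.61 and 4.04 with celastrol. Replicate 2 of tMCAO and of celastrol lay within or below the sham range, and replicates 1 and 3 of both groups lay above it. The log2 fold changes against sham were 1.05 ± 0.57 for tMCAO and 0.99 ± 0.57 for celastrol (edgeR adjusted p = 0.431 and 0.699). Ciita, the transactivator that class II genes need, had 126, 56 and 108 counts in sham, 81, 78 and 65 in tMCAO and 96, 101 and 66 with celastrol. Its groups overlapped, and in the fit of all genes with a count its log2 fold change for tMCAO against sham was -0.53 ± 0.38 (edgeR adjusted p = 0.593). The other 5 class II chains (H2-DMb2, H2-Oa, H2-Ob, H2-Eb2 and H2-Ea-ps) had from 0 to 54 counts in a library.

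Over all 16982 genes tested, edgeR with Benjamini-Hochberg adjustment called 0 genes (0%) in tMCAO relative to sham and 0 genes (0%) in celastrol relative to tMCAO. It called 1 gene (0.00589%) for celastrol against sham and 2 genes (0.0118%) for both occluded groups together against sham, and 0 of the 19 genes described here in any of the 4. These comparisons share libraries, so their counts are given side by side only. At an unadjusted p of 0.05, tMCAO against sham had 5 of 19 higher (H2-D1, H2-Q4, Tap1, Tap2 and Psmb8, all of class I) where 8.56% of all genes were higher, and 1 lower (H2-T24) where 6.36% were lower. Of these, Tap1 had passed the filter through occluded libraries only. DESeq2, run as an alternative, called 4 of the 19 after adjustment (H2-D1, H2-T24, H2-Q4 and Tap1) and 836 genes in all, while limma on FPKM called 0 of the 19. The count of higher genes was 3 without sham replicate 2 or without tMCAO replicate 3, and 8 without tMCAO replicate 2.

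Against tMCAO, celastrol had 1 of 19 higher (H2-T24) and 2 lower (H2-Q4 and H2-Eb1) at an unadjusted p of 0.05, where 2.25% and 1.86% of all genes were. H2-Eb1 had passed the filter through sham and tMCAO libraries only, so its place in the lower count is no support for a change. DESeq2 and limma called 0 of the 19 after adjustment in this comparison. Leaving out 1 library at a time, the count of higher genes went from 0 to 2. The count of lower genes was 6 without tMCAO replicate 2, 4 without celastrol replicate 1 and 0 without tMCAO replicate 1, celastrol replicate 2 or celastrol replicate 3. It was 1 without any 1 of the sham libraries or without tMCAO replicate 3.

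Against sham, celastrol had 2 of 19 higher (H2-D1 and Tap2) and 1 lower (H2-DMa), where 5.69% and 2.81% of all genes were. The higher count was 0 without celastrol replicate 1, sham replicate 2 or sham replicate 3, 1 without tMCAO replicate 3 and 4 without tMCAO replicate 2. The lower count was 0 without sham replicate 2 or 3 or celastrol replicate 2 or 3. For both occluded groups together against sham, H2-D1, Tap1 and Tap2 were higher and H2-T24 was lower (3 and 1 of 19), where 8% and 5.39% of all genes were. DESeq2 called 0 of the 19 after adjustment for celastrol against sham and 3 for both occluded groups, and limma 0 in each. The higher count was 7 without tMCAO replicate 2, and the lower count was 0 without sham replicate 3.

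Groups that do not overlap were counted over the genes tested. In tMCAO 5 of 15 class I genes lay wholly above sham, where 18.8% of all genes tested did, and 1 lay wholly below, where 6.2% did. For the 4 class II genes both counts were 0. With celastrol 2 of 15 class I genes lay wholly above sham (8.91% of all genes tested) and 0 below, and of the 4 class II genes 0 lay above and 1 below (H2-DMa, where 4.24% of all genes tested lay below). Against tMCAO, celastrol had 1 of 15 class I genes wholly above (H2-T24, 2.71% of all genes tested) and 0 below (5.31%), and 0 class II genes either way. Over both occluded groups, H2-D1 and Tap2 lay above sham in all 6 libraries (5.14% of all genes tested) and 0 members lay below (1.51%). Of the genes below the filter, H2-Q6, H2-T10 and H2-Q10 also lay wholly above sham in tMCAO, and H2-Aa lay wholly below sham with celastrol. Celastrol was wholly above tMCAO for H2-Q1 and wholly below it for H2-T10, Psmb9 and H2-Aa. No share of all genes was computed for such low counts.

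**Figure D3:**
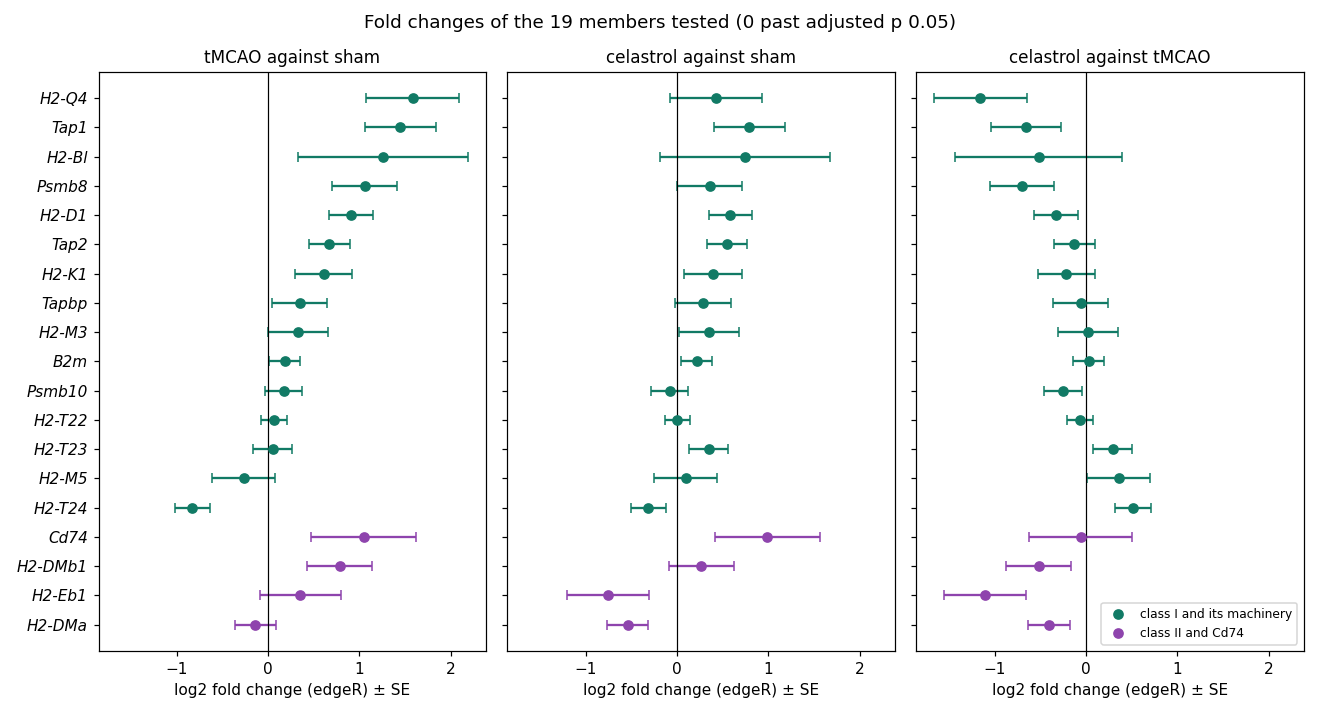
Log2 fold changes from edgeR with SE for the 19 genes tested, ordered by tMCAO against sham within class I (green) and class II with Cd74 (purple). Of these, 0 passed an adjusted p of 0.05. Class I genes lay from -0.83 (H2-T24) to 1.58 (H2-Q4) for tMCAO against sham, and H2-Eb1, H2-DMa and H2-DMb1 lay below 0 for celastrol against tMCAO, as did Cd74 at -0.06, whose sign turned in 5 of 19 alternatives.

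Set side by side, the 15 tested class I genes had a median log2 fold change of 0.35 for tMCAO against sham and the 4 class II genes one of 0.57, where all genes tested had 0.0072. For celastrol against sham the medians were 0.35 and -0.14 (all genes 0.0029). For celastrol against tMCAO they were -0.12 and -0.46 (all genes -0.004). The order of the 2 classes for tMCAO against sham was not stable. The medians were 0.60 for class I and 0.46 for class II without the filter on low values, and without tMCAO replicate 3 the class II median was 0.30 and class I exceeded it by 0.10. For celastrol against tMCAO the class I median was 0.083 without tMCAO replicate 1. The class II medians rest on 4 genes, all of them highest in tMCAO replicate 3 and lowest in tMCAO replicate 2 within that group. Of the 15 class I genes, 10 were highest in tMCAO replicate 1 and 10 lowest in replicate 2, and 12 were highest in celastrol replicate 1.

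The classical chains of each class were also summed per library. H2-K1 and H2-D1 together summed to 17.3, 16.5 and 13.6 FPKM in sham, 39.3, 22.3 and 29.1 in tMCAO and 33.6, 17.9 and 20.6 with celastrol. Every occluded library lay above every sham library. H2-Aa, H2-Ab1 and H2-Eb1 together summed to 1.34, 0.986 and 1.17 FPKM in sham, 1.92, 0.749 and 2.47 in tMCAO and 0.774, 0.679 and 0.695 with celastrol. With celastrol the class II sum was below every sham library, and tMCAO replicate 2 lay inside the range with celastrol. The ratio of the class I sum to the class II sum had a mean of 13.8 ± 2.67 in sham, 20.7 ± 9.01 in tMCAO and 33.1 ± 9.01 with celastrol (SD, n = 3). Summed over all heavy chains and all class II chains, the ratio was 7.65 ± 0.77, 9.94 ± 2.86 and 12.1 ± 1.29. Without H2-D1 and H2-DMa, the most abundant gene of each sum, it was 11.1 ± 1.28 in sham, 10.3 ± 4.75 in tMCAO and 13.7 ± 1.82 with celastrol, so that tMCAO then lay below sham.

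**Figure D4:**
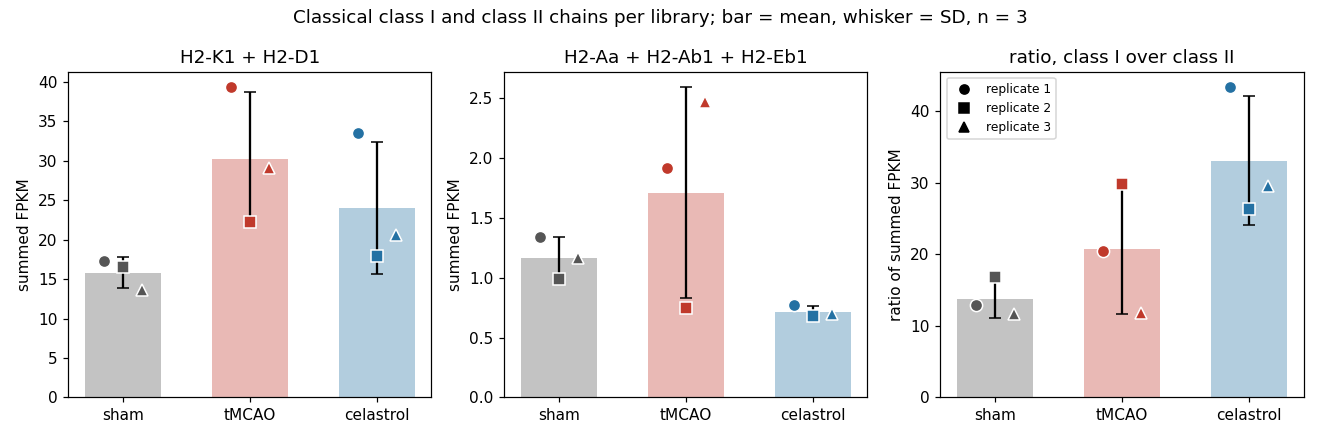
Summed FPKM of the classical class I chains (left) and class II chains (middle) and their ratio (right). Bars are means from 0, whiskers SD and points libraries (n = 3 per group). The class II sum with celastrol lay between 0.679 and 0.774 FPKM, below the 3 sham libraries, and the ratio was highest in celastrol replicate 1.

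Other genes of the 2 pathways were counted in lists of 60 genes, of which 50 were tested. At an unadjusted p of 0.05 in edgeR, tMCAO had 17 of 50 higher than sham (8.56% of all genes tested) and 1 lower (6.36%). Celastrol had 12 of 50 higher than sham (5.69%) and 1 lower (2.81%), and 0 higher than tMCAO (2.25%) and 2 lower (1.86%), and 0 passed an adjusted p of 0.05 in any of these. The lists were drawn up with earlier results of these data known. Cd1d1 and Pirb were below 0.5 FPKM in every sham library and entered the test through occluded libraries only. The counts that include them are thus not independent of the filter. In the class II pathway 6 of 9 tested genes were higher in tMCAO, where 8.56% of all genes were. Ifi30, the thiol reductase that opens disulfide bonds of engulfed proteins, was at 1.75, 1.42 and 1.88 FPKM in sham, 7.91, 4.84 and 11.7 in tMCAO and 7.94, 6.32 and 5.05 with celastrol. The occluded groups of Ifi30 lay wholly above sham, with log2 fold changes of 2.16 ± 0.33 and 1.88 ± 0.32 (edgeR adjusted p = 0.0907 and 0.137). The cathepsins Ctsl, Ctss and Ctsb, which cut antigen and the invariant chain, had log2 fold changes of 1.05 ± 0.25, 0.53 ± 0.17 and 0.37 ± 0.11 for tMCAO against sham. Lgmn, an asparaginyl endopeptidase, had 0.46 ± 0.18, and Cd86, a costimulatory ligand for CD28, had 1.37 ± 0.36.

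In the class I pathway 2 of 9 genes were higher in tMCAO at an unadjusted p of 0.05 and 1 was lower, where 8.56% and 6.36% of all genes were. The peptide trimming enzyme Erap1 had a log2 fold change of 0.71 ± 0.26, the proteasome activator subunit Psme2 one of 0.47 ± 0.18 and the chaperone Calr one of -0.49 ± 0.16 (edgeR adjusted p = 0.279, 0.303 and 0.237). Psme1, the partner of Psme2, was at 8.03, 7.44 and 7.37 FPKM in sham, 9.51, 7.97 and 9.88 in tMCAO and 6.98, 5.81 and 6.51 with celastrol. Each celastrol library of Psme1 was below each library of the other groups (-0.46 ± 0.12 against tMCAO, edgeR adjusted p = 0.976).

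Among MHC-like molecules, Cd1d1, which presents lipids to NKT cells, was at 0.381, 0.275 and 0.296 FPKM in sham, 1.63, 0.820 and 0.724 in tMCAO and 0.536, 0.178 and 0.260 with celastrol. Its tMCAO libraries were above all others, with log2 fold changes of 1.64 ± 0.46 from sham to tMCAO and -1.67 ± 0.46 from tMCAO to celastrol (edgeR adjusted p = 0.191 and 0.976). Cd1d1 passed the filter of 0.5 FPKM only through the tMCAO libraries and celastrol replicate 1. These values are therefore no support for a change. Procr, the endothelial protein C receptor, had a log2 fold change of 2.60 ± 0.76 for tMCAO against sham.

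Of the regulators, 4 of 15 tested were higher in tMCAO at an unadjusted p of 0.05 and 0 lower, again beside 8.56% and 6.36% of all genes. Irf1, a transcription factor of class I promoters, and Rela, the p65 subunit of NF-kappaB, had log2 fold changes of 1.08 ± 0.29 and 0.84 ± 0.18 (edgeR adjusted p = 0.18 and 0.131). Stat2, which carries type I interferon signals, had 0.46 ± 0.19. Ifng and Ifnb1, the genes of interferon gamma and beta, had a count of 0 in all 9 libraries, which allows up to 3 counts in each. The receptor subunit Ifnar2 had a log2 fold change of 0.46 ± 0.18 for tMCAO against sham.

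Receptors listed beside the MHC molecules differed in level. Cd8b1 and Klrc1, of CD8 T cells and NK cells, had 0 counts in every library and Cd8a at most 16. Cd4, the coreceptor for class II, had 43, 146 and 787 counts in sham, 264, 80 and 671 in tMCAO and 81, 189 and 20 with celastrol. Pirb, an inhibitory receptor for class I, was at 0.102, 0.117 and 0.0581 FPKM in sham, 0.671, 0.293 and 0.754 in tMCAO and 0.624, 0.364 and 0.581 with celastrol. Every occluded library of Pirb was above sham, with a log2 fold change of 2.503 ± 0.44 for tMCAO against sham (edgeR adjusted p = 0.0994). Lilrb4a, an inhibitory receptor for which no binding to MHC molecules is shown here, had 4.28 ± 0.78 (edgeR adjusted p = 0.102).

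Markers of cells that can carry MHC are set beside these values. In bulk tissue fewer cells of a type and less RNA per cell cannot be told apart. Summed FPKM of 10 microglial markers was 110 to 125 in sham, 107 to 205 in tMCAO and 134 to 163 with celastrol. Its members went in both directions. P2ry12 had 1286 to 1444 counts in sham and 388 to 522 in tMCAO, and Tmem119 and Siglech also lay wholly below sham there. C1qa had 1866 to 2590 counts in sham and 3248 to 5371 in tMCAO, and the other microglial markers overlapped. For 6 border macrophage markers it was 1.99 to 2.63, 2.79 to 9.52 and 3.52 to 8.99, and for 6 monocyte markers 4.28 to 8.13, 5.63 to 19.5 and 9.81 to 14.2. In tMCAO replicates 1, 2 and 3 the microglial sum was 107, 111 and 205, the border macrophage sum 9.52, 2.79 and 7.32 and the monocyte sum 8.02, 5.63 and 19.5. The 4 tested class II genes were highest in replicate 3 and lowest in replicate 2 of that group, the order of the monocyte sum. That order was not particular to monocytes. The sums of astrocyte markers (397, 256 and 439) and of 6 pericyte and fibroblast markers (38.4, 27.2 and 39.0) had it too. So did the sum of T and NK cell markers (1.57, 0.729 and 2.75), while each other marker sum had another order. The microglial sum was lowest in replicate 1 and the border macrophage sum highest there. Most counts of the monocyte markers were of Fn1, which other cells also make and which had 3101 to 11517 counts in a library. The monocyte gene Chil3 had 15, 0 and 4 counts in sham, 216, 118 and 362 in tMCAO and 483, 125 and 243 with celastrol. Plac8 had 0 counts in sham, 44, 0 and 55 in tMCAO and 57, 28 and 33 with celastrol. Ccr2 had 15, 0 and 12 counts in sham, 74, 55 and 339 in tMCAO and 34, 59 and 15 with celastrol. Ly6c2 had 114, 74 and 65 counts in sham, 0, 128 and 156 in tMCAO and 144, 122 and 146 with celastrol. Ly6i had at most 8 in a library. Summed FPKM of 8 endothelial markers was 62.4 to 84.3 in sham, 95.1 to 116 in tMCAO and 93.5 to 140 with celastrol. Its members did not rise together. In counts Cldn5, Pecam1, Cdh5 and Emcn lay wholly above sham in tMCAO, while Flt1, Slc2a1, Ly6c1 and Tek overlapped it. Tek had 992 to 1286 counts in sham, 546 to 1047 in tMCAO and 677 to 989 with celastrol. Summed FPKM of 7 neutrophil markers was 0.613 to 3.09 in sham, 10.0 to 26.6 in tMCAO and 14.8 to 47.7 with celastrol.

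Markers of dendritic cells (8 genes) summed to 3.24 to 4.11 FPKM in sham, 3.35 to 4.47 in tMCAO and 3.60 to 4.26 with celastrol, and those of B cells (6 genes) to at most 0.845 FPKM in any library. Of 8 T and NK cell markers Cd3d and Ncr1 had 0 counts in all libraries, and the sum was 0.68 to 2.92 FPKM in sham, 0.729 to 2.75 in tMCAO and 0.415 to 0.898 with celastrol, Cd4 included. Choroid plexus markers (7 genes) summed to 3.28 to 25.7 FPKM in sham, 5.20 to 353 in tMCAO and 3.22 to 1327 with celastrol. Astrocyte markers (5 genes) summed to 114 to 151 FPKM in sham, 256 to 439 in tMCAO and 164 to 360 with celastrol. Every occluded library lay above every sham library, and replicate 2 was the lowest of each occluded group. These markers did not rise together. Gfap had 6340 to 18152 counts in sham, 57842 to 101017 in tMCAO and 23942 to 84841 with celastrol. In counts Aldh1l1 also lay wholly above sham in tMCAO, while Aqp4 and Slc1a3 overlapped sham and Gja1 lay wholly below it. Neuronal markers (6 genes) summed to 784 to 916, 714 to 836 and 689 to 1011 FPKM, and oligodendrocyte markers (5 genes) to 315 to 563, 390 to 576 and 290 to 649. The part of these markers in the values of the MHC genes was not tested.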

How the data were processed

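Per the labels' protocols, 5 µg of total RNA was depleted of ribosomal RNA (Ribo-Zero Gold) and read as paired ends of 150 bases. The table deposited by the authors holds an estimated count and an FPKM value for each gene in each library. The submitters' processing notes name the mm10 build and the tools StringTie 1.3.4d, HISAT2 2.0.4, cutadapt 1.9, DESeq2 and edgeR, without settings or strand. The deposited estimated counts, all whole numbers, were tested in R 4.3.3 with edgeR 4.0.16 (quasi-likelihood F test after glmQLFit, TMM scaling, 1 fit of all 9 libraries, two-sided). This covered the 16982 genes with a deposited FPKM of 0.5 or more in at least 3 libraries. P-values were adjusted by Benjamini-Hochberg across these genes and called at 0.05, and SE is log2 fold change over the root of F. Genes that missed the filter were read from a fit of all 33952 genes with a count. FPKM of 0.0001 stands for a count of 0. Every gene of the set that passed the filter was named, together with those of the main roles. The genes and lists were chosen with earlier results of these data known, so no list was tested. The fit was tested on simulated data. Alternatives were DESeq2 1.42.0, limma 3.58.1, other scalings and filters, a replicate block and leaving out each library. A count of 0 allows up to 3 counts (counting error only). The libraries differed from one another beyond sampling noise, with chi-square per degree of freedom 68.96 or more. All 46 gene IDs are in GENCODE M21, 40 with the same coordinates. Promoters are those of RefSeq on GRCm38.p6.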

Additional observations from a re-analysis of the deposited data

How the results depend on the processing

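No member passed an adjusted p of 0.05 under any alternative except DESeq2, which called 4 for tMCAO against sham (log2 fold changes of 0.91 for H2-D1, 1.58 for H2-Q4, 1.44 for Tap1 and -0.84 for H2-T24) and 3 for both occluded groups against sham. The cause was not tested. No scaling moved the median of all genes by more than 0.1.

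All genes called, in the order tMCAO against sham, celastrol against tMCAO, celastrol against sham, both occluded groups, were 836, 18, 380 and 797 in DESeq2 and 51, 0, 22 and 64 with the replicate block. Correlations of same-numbered libraries ran from -0.156 to 0.198 (3 of 9 over 0.1). Those of other pairs from different groups ran from -0.264 to 0.227 (3 of 18 over 0.1). The labels do not say whether a number marks a shared batch, and so few pairs cannot decide it. With the block, members at an unadjusted p of 0.05 were 5 higher for both occluded groups and 0 lower for celastrol against sham. limma on log2(FPKM + 0.1) called 2 genes for tMCAO, 3 for celastrol against sham and 29 for both. The newer quasi-likelihood form called 2, 6 and 5. Without the filter 3 genes were called for celastrol against sham and 4 for both. With only the compared groups fitted, 30 were called for tMCAO and 4 for celastrol against sham. Leaving out 1 library gave 0 to 91, 0 to 2, 0 to 46 and 0 to 200, the highest without celastrol replicate 2 except in celastrol against tMCAO (2 without tMCAO replicate 2).

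Members at an unadjusted p of 0.05, higher in tMCAO, were 8 without the filter and 3 to 8 with 1 library left out. The fit without the filter held 29 class I and 11 class II members, more than were tested, so its counts have another base. Of its 33952 genes, 1932 were higher in tMCAO and 1791 in both occluded groups. Lower genes were 624 for celastrol against sham and 518 for celastrol against tMCAO. For both occluded groups higher members were 6 in DESeq2, 8 without the filter and 2 to 7 with 1 library left out (lower, 0 to 1). For celastrol against sham, higher members were 1 in limma with 0.5 and 0 to 4 with 1 library left out. Lower ones were 0 in limma with either pseudocount and with upper-quartile scaling, 2 without the filter and 0 to 1 with 1 library left out. For celastrol against tMCAO, lower members were 0 in limma with either pseudocount, 5 without the filter, 1 with upper-quartile scaling or only the compared groups, and 0 to 6 with 1 library left out (higher, 0 to 2).

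Without the filter the class I median was 0.60 and the class II median 0.46 for tMCAO against sham, which turned the difference of class I minus class II from -0.22 to 0.14. With 1 library left out that difference went from -0.46 to 0.10, and for both occluded groups from -0.046 to 0.33. Without the filter the class I median was 0.61 for both occluded groups (difference 0.81). For celastrol against tMCAO the class I median went from -0.31 to 0.083 with 1 library left out. Without H2-D1 and H2-DMa the ratio of class I to class II sums was 11.1 in sham, 10.3 in tMCAO and 13.7 with celastrol, with tMCAO below sham.

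Some signs turned. For celastrol against tMCAO, limma with 0.1 and 0.5 gave -0.014 and -0.014 for B2m, 0.10 and 0.059 for Cd74, and -0.0068 and -0.0063 for H2-M3, and the block gave 0.045 for Cd74. With 1 library left out B2m went from -0.11 to 0.17, Cd74 from -0.50 to 0.48, H2-Bl from -0.997 to 0.14, H2-K1 from -0.53 to 0.083, H2-M3 from -0.17 to 0.34, H2-T22 from -0.15 to 0.038 and Tapbp from -0.28 to 0.25. For celastrol against sham H2-T22 was -0.0039 in DESeq2, -0.0035 with median-ratio scaling and -3e-04 with only the compared groups. With 1 library left out H2-T22 went from -0.080 to 0.10, H2-M5 from -0.19 to 0.24, H2-Q4 from -0.067 to 0.63 and Psmb10 from -0.21 to 0.026. For tMCAO against sham H2-DMa went from -0.25 to 0.028, H2-T22 from -0.014 to 0.13, H2-T23 from -0.058 to 0.17 and Psmb10 from -0.055 to 0.28.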

Other observations

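Cd74 did not follow H2-Aa, H2-Ab1 and H2-Eb1 with celastrol, where these 3 chains had only 35 to 65 counts in a library. The ratio of Cd74 to the summed FPKM of H2-Aa, H2-Ab1 and H2-Eb1 was 1.44, 1.64 and 0.868 in sham replicates 1, 2 and 3, 1.89, 1.31 and 2.26 in tMCAO and 5.01, 2.37 and 5.81 with celastrol. All 3 celastrol libraries lay above the other 6. The ratio was chosen after its values were seen and was not tested.

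The ratio of B2m to H2-K1 plus H2-D1 was 4.19, 3.84 and 4.39 in sham, 2.23, 2.82 and 2.98 in tMCAO and 2.67, 4.60 and 3.06 with celastrol. The tMCAO libraries lay below all sham libraries, and celastrol replicate 2 lay above them. This ratio too was chosen after its values were seen.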
